A study of Mus musculus with 24 samples.

Results

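The 52 genes described here act in DNA repair, and they are every gene of a list of repair genes, ordered by pathway, whose name is given to at least 1 probe of the array, out of 29742 genes named on it. They were measured by 74 probes, and 17 of the genes had more than 1 probe. By role, 11 act in homologous recombination, 7 in end joining, 6 in signalling from breaks, 3 in mismatch repair, 7 in base excision repair, 6 in the gap filling that repair shares with replication, 9 in nucleotide excision repair and 3 in the Fanconi pathway.

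Whole blood of male C57BL/6 mice was profiled on 24 1-colour Agilent arrays, which the study's methods give as 24 mice. Young mice were 2 months old and old mice were 21 months old. In each age, 6 mice received 4 Gy of x-rays and were bled 24 h later, and 6 mice were not irradiated. All 4 groups share the strain and the sex, and the 6 mice of each group limit the precision of every value below.

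Each repair pathway handles its own kind of damage. Broken ends are joined directly or repaired by copying a sister strand, small base lesions are removed by glycosylases and a short patch is refilled, bulky lesions are excised with their surroundings, mispaired bases are removed after replication, and crosslinks are unhooked by the Fanconi proteins. X-rays break strands and oxidise bases, and circulating lymphocytes, B cells above all, are known as the blood cells most easily killed by them.

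Levels are given as the log2 of a spot's background-subtracted signal minus the median log2 signal of that array, so that 0 is the middle of the array. On the median array, 52.5% of spots were well above background in unirradiated young mice, 54.1% in irradiated young mice, 53.04% in unirradiated old mice and 52.4% in irradiated old mice, and the arrays ranged from 43.9% to 64.4%. Between 45 and 50 members were well above background on the arrays of unirradiated young mice, 39 to 48 after irradiation, 48 to 49 in unirradiated old mice and 34 to 49 in irradiated old mice. A gene was called a DEG, and is said to have risen or fallen, where limma's test gave an unadjusted p under 0.005 and a Benjamini-Hochberg adjusted p under 0.05 over all 17805 genes tested. Of the members, 50 passed the filter on dim spots and 49 were tested. Brca1, which directs broken ends into recombination, was well above background on 0 of 24 arrays and Fancd2, the Fanconi protein that is ubiquitinated at crosslinks, on 1 of 24. Ogg1, the glycosylase for oxidised guanine, was bright on all 24 arrays but varied too little to enter the test.

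Some arrays stood apart. The arrays of irradiated old mice 4 and 6 had the lowest median signals, 8.66 and 8.84, and the lowest summed B-cell markers, 5.78 and 5.98, of all 24. Hepatocyte markers were high on 7 arrays, those of unirradiated young mouse 5, irradiated young mice 2, 4 and 5 and irradiated old mice 2, 3 and 5, with summed log2 levels of 11.3 to 15.0. Within groups, 5 pairs of arrays had the smallest differences, namely 1 and 6 of unirradiated young, irradiated young and unirradiated old mice, 2 and 5 of irradiated young mice, and 4 and 6 of irradiated old mice. The SD of their log2 differences was 0.13 to 0.22, against group medians of 0.49 to 1.65. The pair of unirradiated young mice is not far from others of its group, since mice 2 and 6 had an SD of 0.26 and a correlation as high. Whether a pair shares an animal or an RNA extract was not tested, and every n = 6 below counts its arrays separately, as the labels do. With each pair counted once, 21 members fell in young and 25 in old mice, and 26 rose between unirradiated young and old mice. Of all 17805 genes, 4721, 2878 and 9950 were then DEGs in the same order, against 6300, 4429 and 11370 with all arrays. For age, that share of all genes is near the share of members that rose. The 6 slides held 4 arrays each. For each age, a single mixed slide carried 2 irradiated mice beside 2 unirradiated ones. Young and old mice never shared a slide, and their slides were scanned on different days, so that age, slide and scan day cannot be told apart.

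In young mice the comparison asks how repair transcripts of whole blood stand 24 h after 4 Gy. Repair genes of every pathway were on the low side after irradiation: 25 of the 49 members tested (51%) fell and 0 rose in limma's test, and 36 had an unadjusted p under 0.05. Over all genes tested, 21.1% fell and 14.3% rose. The largest decreases were those of Parp1, the enzyme that marks strand breaks with poly(ADP-ribose), Ddb2, which recognises damaged bases in chromatin, and Fanca, a core Fanconi protein. Xrcc2, a partner of the recombinase, also fell, but its probe was not well above background after irradiation and its place in this order is not known. In bulk blood, fewer cells of a type and less RNA per cell cannot be told apart, and that holds for every change below. The paper's blood counts gave a smaller share of lymphocytes and a larger share of neutrophils after irradiation in both ages. For platelets the paper reports no appreciable change in counts. The part of these shifts in the members' changes was not tested.

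The log2 change of the median member was -0.70, while the median of all genes tested was -0.20. Changes are therefore also given relative to the all-gene median, and by that measure the median member stood at -0.51, with 44 of 49 below 0 and a range of -2.15 to 1.502. Within the young slide that held both treatments the members' median relative change was -0.50, with 41 of 49 below 0. All 25 members that fell had the same sign there, but these 4 arrays are among those that gave the calls. The shared sign is therefore no separate test. Single members differed in size: Ercc1 was at -0.03 against -0.52 over all arrays and Trp53bp1 at -0.14 against -0.62. Xrcc1 went the other way, at -0.77 against -0.51. With slide as a fixed block, which takes the radiation difference from those 4 arrays alone, 11 members were DEGs. With slide as a random block 36 were, 35 lower and 1 higher. Of all 17805 genes, 1824 were DEGs with the fixed and 8865 with the random block, against 6300 with neither. The member counts thus moved in the same direction as those of all genes. Of all DEGs in young mice 40.4% were higher. After normexp, another background correction, the share was 94.0%, and 0 of 31 members tested were DEGs in limma's test, with 2 at an unadjusted p under 0.05.

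In old mice the same question was asked at 21 months, and the median of every repair pathway was again on the low side. Of 49 members, 29 (59.2%) fell and 0 rose in limma's test, with 41 at an unadjusted p under 0.05. Among all genes, 17.4% fell and 7.49% rose. Parp1 again showed the largest decrease, followed by Apex1, the nuclease that cuts beside a missing base, and, as measured on probes well above background in 2 and 3 of 6 irradiated old mice, by Xrcc2 and by Fancc, another core Fanconi protein. Across the ages, which share no mice in these 2 comparisons, 22 members fell in both and 17 were DEGs in neither.

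The median member changed by -1.25 in old mice against -0.26 for all genes, a relative median of -0.99, with 46 of 49 below 0 and a range of -2.97 to 0.48. Without irradiated old mice 4 and 6, 31 members fell and the relative median was -0.69. Of all genes 6129 were then DEGs in either direction, against 4429 with all arrays. Without the 7 arrays high in hepatocyte markers, 32 members fell in old mice and 28 in young mice. Of all 17805 genes, 7169 and 6230 were then DEGs in either direction, against 4429 and 6300 with all arrays. Within the old slide that held both treatments the relative median was -1.05, with 46 of 49 members below 0. All 29 members that fell had the same sign there, but the arrays of that slide are among those that gave the calls. With slide as a fixed block, however, 1 of 49 members was a DEG, a share near that of all genes (495 of 17805). Of all DEGs in old mice 30.1% were higher, a share that moved to 48.0% with scaling to the 75th percentile, 53.3% with scaling to the median of bright probes, 50% with normexp, 51.95% in the deposited log2 values and 45.3% with arrays centred on the genes tested. With quantile normalization it was 36.1%. The members' relative median stayed below 0 under all of these scalings in both ages, between -0.47 and -0.57 in young and between -0.69 and -1.30 in old mice. After normexp 0 of 31 members were DEGs in old mice in limma's test, where 8 genes in all were, and 1 member had an unadjusted p under 0.05.

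**Figure D1:**
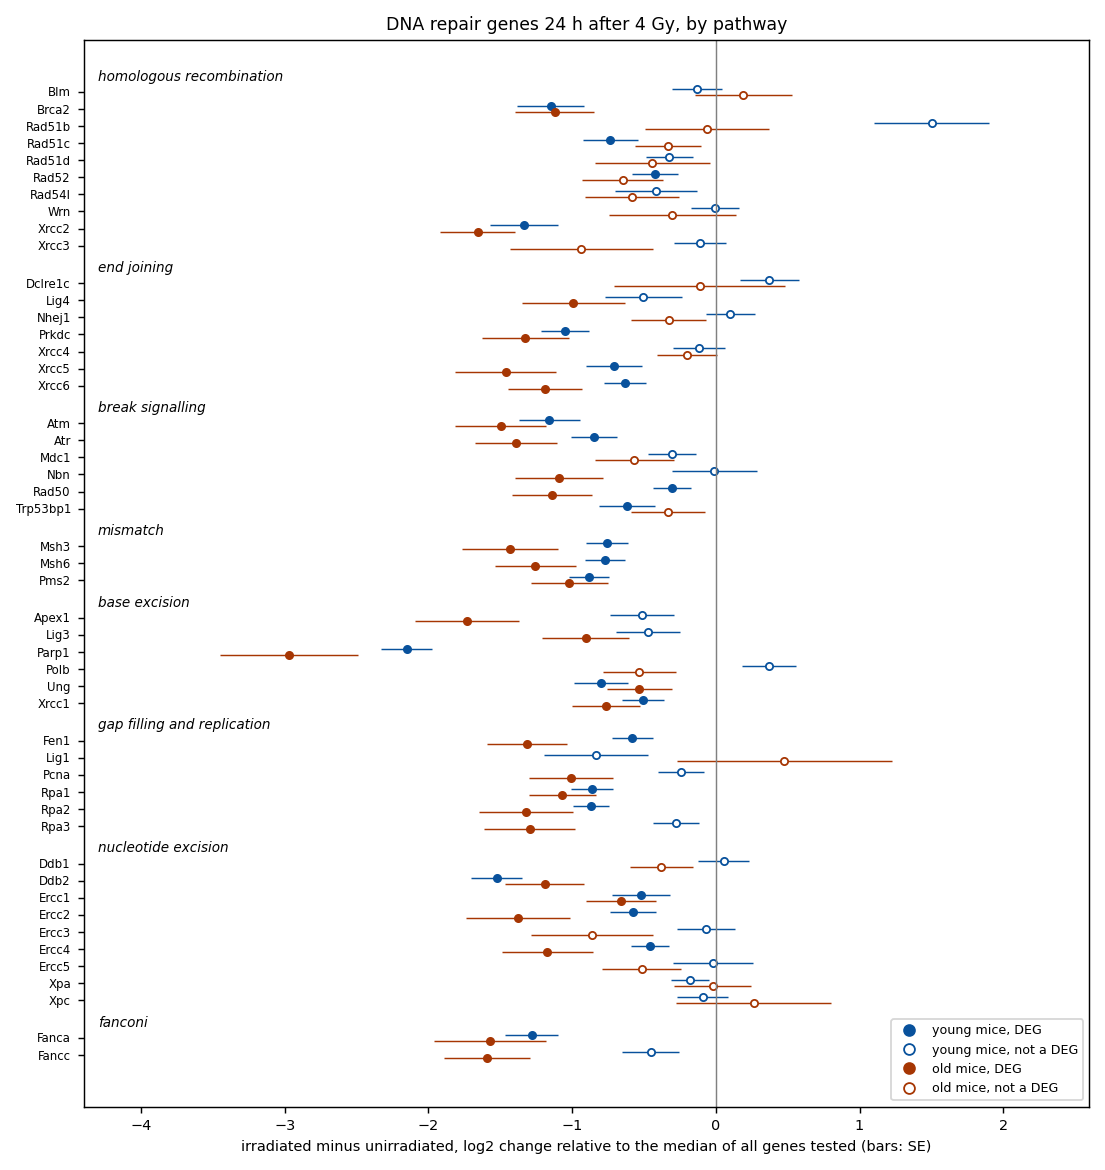
Log2 change after irradiation relative to the median of all genes tested, for each of the 49 members tested, grouped by pathway, with young mice in blue and old mice in red, bars showing the standard error and filled points marking DEGs. Most points lie left of 0, down to -2.15 for Parp1 in young and -2.97 in old mice, and the median of every pathway was below 0 in both ages under each scaling tried.

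Homologous recombination rebuilds a broken strand from its sister copy and is used by dividing cells. Of its 10 members tested, 4 fell in young mice, namely Brca2 (log2 change -1.35), which loads the recombinase onto DNA, the recombinase partners Rad51c (-0.93) and Xrcc2, and Rad52 (-0.62), which anneals strands. In old mice Brca2 (-1.38) and Xrcc2 fell, and these 2 of 10 are near the 17.4% of all genes that fell there. After irradiation Brca2 was well above background in 3 of 6 young and 2 of 6 old mice. Median relative changes were -0.37 in young and -0.51 in old mice. Rad51c and Rad52 passed the thresholds in young mice alone, but the test of the difference between ages gave limma adjusted p = 0.429 and 0.563.

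Levels of Xrcc2 ran from -1.15 to -0.20 with a median of -0.50 in unirradiated young mice, and from -2.77 to -1.42 with a median of -2.11 after irradiation. In old mice they ran from -0.31 to 0.62 (median 0.11) without and from -2.45 to -1.24 (median -1.83) with irradiation. Irradiated and unirradiated mice did not overlap in either age, and the probe was well above background in 4 and 0 of 6 young and 6 and 2 of 6 old mice. With each dim array taken at its lowest signal well above background, or at its own signal where that was higher, Xrcc2 was at least 1.27-fold lower after irradiation in young mice. Its measured log2 change there was -1.53 ± 0.237 (SE, n = 6 per group; limma adjusted p = 0.000246; exact permutation p = 0.00216, two-sided, the smallest that 924 splits can give). The size in young mice is uncertain beyond the bound, because 0 of the 6 irradiated ones were well above background. In old mice the measured fall of Xrcc2 was 1.91 (SE 0.263, limma adjusted p = 0.000462), a size that is uncertain because 4 of the 6 irradiated mice were not well above background. Another Xrcc2 probe, well above background on 1 of 24 arrays, showed 0.62 in young and -0.59 in old mice relative to all genes, the other direction in young mice. Within the mixed slides its relative change was -0.66 in young and -1.78 in old mice, and it was no DEG with slide as a fixed block (adjusted p = 0.145 and 0.0637), nor in young mice in the deposited values (-1.05, adjusted p = 0.0366).

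Rad51b, another recombinase partner, was the one member far on the high side in young mice, with a log2 change of 1.30 that was no DEG (limma adjusted p = 0.0168). It became a DEG without unirradiated young mouse 4 or irradiated young mouse 1, and its probe stood well above background in 5 of 6 irradiated but 2 of 6 unirradiated young mice. In old mice the measured change of Rad51b was -0.32, and the difference between the ages had adjusted p = 0.145. The probe was well above background on 8 of 24 arrays, most of them of young mice. The size of the old change is therefore not known, and the difference between the ages cannot be judged. The recombinase partners Rad51d and Xrcc3, the strand-exchange motor Rad54l and the RecQ helicases Blm and Wrn had log2 changes between -0.61 and -0.21 in young mice and between -1.19 and -0.06 in old mice, with no DEG among them. The sign of Wrn relative to all genes in young mice, and that of Blm in old mice, flipped under some scalings.

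Brca1 lay between -4.17 and -2.46 with a median of -2.75 in unirradiated young mice and between -3.55 and -1.64 (median -2.93) after irradiation. In old mice it lay between -2.98 and -2.35 (median -2.89) without and between -4.23 and -0.29 (median -2.64) with irradiation. None of these values of Brca1 is well above background and the groups overlap, so no fold is given. Exact two-sided permutation tests of Brca1 gave p = 0.517 for radiation in young and 0.879 in old mice, and 0.37 for age without and 0.807 with irradiation.

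End joining seals broken ends without a template and also joins the gene segments of antigen receptors in lymphocytes. The Ku subunits Xrcc5 (log2 change -0.91 in young, -1.72 in old mice) and Xrcc6 (-0.83, -1.44), which ring the broken end, fell in both ages. So did Prkdc, the kinase that Ku recruits, and Lig4 (-1.25), the ligase of the pathway, fell in old mice, with 4 of 6 irradiated mice well above background, and reached -0.70 in young mice with adjusted p = 0.435 for the difference between ages. In all, 3 of 7 members fell in young and 4 of 7 in old mice, with median relative changes of -0.51 and -0.99. The ligase partners Xrcc4 (-0.32, -0.46) and Nhej1 (-0.10, -0.58) and the end-trimming nuclease Dclre1c (0.17, -0.37) were no DEGs, and Nhej1 in young and Dclre1c in old mice changed sign relative to all genes under some scalings.

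Prkdc ranged from 1.31 to 2.06 (median 1.78) in unirradiated and from 0.14 to 0.78 (median 0.56) in irradiated young mice. In old mice Prkdc ranged from 1.88 to 2.89 (median 2.51) without and from 0.09 to 1.63 (median 0.86) with irradiation. Every irradiated mouse was below every unirradiated mouse of its age, and the probe was not well above background in 1 irradiated old mouse. The log2 change of Prkdc was -1.25 ± 0.164 (SE) in young mice (limma adjusted p = 8.12e-05) and -1.58 ± 0.303 in old mice (0.00239). Relative to all genes it was -1.05 and -1.33, and within the mixed slides -0.76 and -1.71, with no call for slide as a fixed block (adjusted p = 0.0542 and 0.102) or after normexp (-0.71, 0.318 and -0.66, 0.684).

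Signalling from breaks starts with kinases that sense damage and with proteins that gather on the chromatin beside it. Atm, the kinase activated by double-strand breaks, and Atr (log2 change -1.05 in young, -1.64 in old mice), its relative for single-stranded DNA, fell in both ages. A further Atr probe, well above background on all 24 arrays, showed much smaller changes of -0.29 in young and -0.15 in old mice relative to all genes, against -0.85 and -1.39 for the brighter probe used. Rad50 (-0.50, -1.39), which tethers broken ends, also fell in both. Its partner Nbn fell in old mice (-1.35, with 2 of 6 irradiated mice well above background; -0.21 in young mice, adjusted p = 0.146 for the difference) and Trp53bp1 (-0.82), which holds ends back from trimming, fell in young mice (-0.59 in old mice, adjusted p = 0.636). A dim further Trp53bp1 probe, well above background on 4 of 24 arrays, stood at 0.01 relative to all genes in young mice. A further Rad50 probe, on 16 of 24 arrays, showed -0.73 in young and -1.29 in old mice relative to all genes. The Rad50 probe used showed -0.31 and -1.14, so the ages lay closer together on the further probe. The chromatin adaptor Mdc1 was no DEG in either age (-0.50, -0.82). That made 4 of 6 members in each age, with median relative changes of -0.46 and -1.11. Nbn in young mice had no fixed sign relative to all genes under the scalings.

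Atm lay between 0.67 and 1.87 (median 1.45) in unirradiated young mice and between -0.41 and 0.45 (median 0.12) after irradiation. The old mice had 1.54 to 2.88 (median 2.13) without and -0.13 to 1.19 (median 0.31) with irradiation. Irradiated and unirradiated values of Atm did not overlap in either age, and 3 of 6 irradiated young and 4 of 6 irradiated old mice were well above background. Atm changed by -1.36 ± 0.213 (SE) in young mice (limma adjusted p = 0.000268) and by -1.75 ± 0.319 in old mice (0.00189). Within the mixed slides its relative change was -0.68 and -2.16, with no call for slide as a fixed block (adjusted p = 0.116 and 0.0566), and in the deposited values it was no DEG in old mice (adjusted p = 0.0311).

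Mismatch repair corrects copying errors. All 3 members fell in both ages: Msh3 (log2 change -0.95 in young, -1.69 in old mice) and Msh6, the alternative partners that recognise a mispair, and Pms2 (-1.08, -1.27), which nicks the new strand. The median relative change was -0.77 in young and -1.26 in old mice. A dim further Msh3 probe, which the deposited values hold and which was well above background on 11 of 24 arrays, showed 1.15 in young and 0.03 in old mice relative to all genes, and another, on 5 of 24, showed -0.52 and -1.56. The direction of Msh3 in young mice thus differs on 1 of its 3 probes. Of 3 further Pms2 probes, that on 7 of 24 arrays showed -0.91 and -1.28. The probe on 4 of 24 was on the other side of 0 from the probe used, by 0.01 in young and 0.79 in old mice. The remaining probe was well above background on 0 of 24 arrays, so no change is given for it.

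Msh6 lay between 4.34 and 4.85 (median 4.64) in unirradiated and between 3.36 and 3.88 (median 3.67) in irradiated young mice. In old mice it lay between 4.80 and 5.36 (median 5.30) without and between 2.95 and 4.25 (median 3.93) with irradiation. The groups were apart in both ages. The change of Msh6 was -0.97 ± 0.141 (SE) in young mice (limma adjusted p = 0.000156) and -1.51 ± 0.283 in old mice (0.00216). Within the mixed slides the relative change was -0.71 and -1.21, and Msh6 was no DEG with slide as a fixed block (adjusted p = 0.0489, where the unadjusted p missed its threshold, and 0.185) or after normexp (0.758 and 0.672).

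Base excision repair removes oxidised, deaminated or lost bases and seals single-strand breaks. The uracil glycosylase Ung (log2 change -0.997 in young, -0.79 in old mice), Parp1 and the scaffold Xrcc1 (-0.71, -1.02) fell in both ages, and Apex1 and the ligase Lig3 (-1.16) in old mice. This made 3 of 6 members tested in young and 5 of 6 in old mice, with median relative changes of -0.51 and -0.84. The old count was 3 without unirradiated old mouse 6. For Lig3, which showed -0.67 in young mice, the difference between ages had adjusted p = 0.395. Its probe was well above background in 4 of 6 irradiated old mice, and a further one, on 10 of 24 arrays, showed -0.13 there relative to all genes. The gap-filling polymerase Polb showed 0.17 in young and -0.79 in old mice and was no DEG in either (adjusted p = 0.129 for the difference), and the relative signs of Polb and Lig3 in young mice flipped under some scalings. Ogg1, not tested, changed by -0.21 and -0.58.

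Parp1 ranged from 3.61 to 4.62 (median 4.18) in unirradiated young mice and from 1.54 to 2.06 (median 1.86) in irradiated ones. In old mice Parp1 ranged from 4.57 to 5.23 (median 5.07) without and from -0.33 to 2.95 (median 2.18) with irradiation. No irradiated mouse reached the lowest unirradiated mouse of its age, and irradiated old mice were spread over a wider range than the other groups, with 1 of them not well above background. Parp1 fell by 2.35 on the log2 scale in young mice (SE 0.178, n = 6 per group, limma adjusted p = 1.77e-06) and by 3.23 in old mice (SE 0.478, adjusted p = 0.000672), and the exact two-sided permutation p was 0.00216 in both. Within the mixed slides the relative change of Parp1 was -1.87 in young mice, a DEG with slide as a fixed block, and -2.86 in old mice, not a DEG (adjusted p = 0.093). After normexp it was -1.69 (adjusted p = 0.0763) and -1.87 (0.141).

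Apex1 lay between 3.22 and 3.81 (median 3.42) in unirradiated young mice and between 2.20 and 3.34 (median 2.85) after irradiation, and its change of -0.71 there was no DEG. In old mice Apex1 lay between 3.80 and 4.61 (median 4.26) without and between 1.19 and 3.23 (median 2.21) with irradiation. The young groups overlapped and the old groups did not. In old mice Apex1 fell by 1.98 (SE 0.363, limma adjusted p = 0.00191), and within the mixed slide its relative change was -2.08 (adjusted p = 0.104 with slide as a fixed block). After normexp it was -1.01 (adjusted p = 0.503). The difference between the ages, -1.27, had an unadjusted limma p of 0.00687 and an adjusted p of 0.131.

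Gap filling uses the clamp, flap nuclease, ligase and single-strand binding proteins of replication. The flap nuclease Fen1 (log2 change -0.78 in young, -1.57 in old mice) and the single-strand binding subunits Rpa1 (-1.06, -1.32) and Rpa2 (-1.07, -1.58) fell in both ages, and the sliding clamp Pcna and the third subunit, Rpa3 (-1.55), in old mice. Rpa3 had -0.48 in young mice, with adjusted p = 0.129 for the difference between ages. The counts were 3 of 6 in young mice, or 5 without unirradiated young mouse 5, and 5 of 6 in old mice, with median relative changes of -0.71 and -1.18. Lig1, the replicative ligase, changed by -1.03 in young and 0.22 in old mice, no DEG in either, with adjusted p = 0.356 for the difference and a relative sign in old mice that flipped under quantile normalization and in the deposited values.

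Pcna had levels of 5.08 to 5.70 (median 5.63) in unirradiated and 4.78 to 5.37 (median 5.12) in irradiated young mice. The range in old mice was 5.88 to 6.84 (median 6.25) without and 4.42 to 5.57 (median 5.28) with irradiation. Young groups overlapped, while every irradiated old mouse was below every unirradiated one. In old mice Pcna fell by 1.26 (SE 0.290, limma adjusted p = 0.00581), with a relative change of -1.13 within the mixed slide (adjusted p = 0.214 with slide as a fixed block) and -0.74 after normexp (0.789). In young mice its change of -0.44 was no DEG (limma adjusted p = 0.0382), but it became one without unirradiated young mouse 5 (-0.30 relative, 0.0144), with slide as a random block (-0.30, 0.00209) and with quantile normalization (-0.35, 0.0058). Within the young mixed slide the relative change of Pcna was only -0.05, against -0.24 over all arrays. The difference between the ages was not past the threshold (adjusted p = 0.154).

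Nucleotide excision repair cuts out bulky lesions in a short strand. The damage sensor Ddb2, the nuclease pair Ercc1 (log2 change -0.72 in young, -0.91 in old mice) and Ercc4 (-0.66, -1.43) and the helicase Ercc2 (-0.77, -1.63) fell in both ages. Those 4 of 9 members made up the DEGs of each age, with median relative changes of -0.18 and -0.66. The other helicase Ercc3 (-0.27, -1.12), the nuclease Ercc5 (-0.22, -0.77), the Ddb2 partner Ddb1 (-0.14, -0.63), the scaffold Xpa (-0.38, -0.28) and the sensor Xpc were no DEGs. Relative signs flipped under some scalings for Ercc5 in young and Xpa in old mice.

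Ddb2 lay between 2.39 and 3.06 (median 2.95) in unirradiated and between 0.78 and 1.66 (median 1.06) in irradiated young mice. Old mice had 3.16 to 4.26 (median 3.68) without and 1.77 to 2.83 (median 2.35) with irradiation. Neither pair of groups overlapped. Ddb2 fell by 1.72 in young mice (SE 0.181, limma adjusted p = 1.67e-05) and by 1.45 in old mice (SE 0.274, 0.00224), with no call for the difference (0.28, adjusted p = 0.575). Within the mixed slides its relative change was -1.43 in young mice, a DEG with slide as a fixed block, and -1.26 in old mice, not a DEG (adjusted p = 0.136). After normexp it was -1.05 (adjusted p = 0.128) and -0.75 (0.672).

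Xpc, which opens the helix at a lesion, went from 3.04 to 3.75 (median 3.51) in unirradiated and from 2.77 to 3.53 (median 3.22) in irradiated young mice. In old mice it went from 4.45 to 5.08 (median 4.67) without and from 2.89 to 6.38 (median 5.02) with irradiation. The groups overlapped in both ages, and irradiated old mice were spread to both sides of the unirradiated ones. Xpc changed by -0.29 in young (limma adjusted p = 0.202) and by 0.01 in old mice (0.993), which relative to all genes was -0.09 and 0.26, against 0.13 and 1.24 within the mixed slides. Leaving out each array gave relative changes of -0.14 to -0.03 in young and -0.02 to 0.64 in old mice.

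The Fanconi pathway unhooks strands that are crosslinked to each other. Fanca fell in both ages (log2 change -1.48 in young, -1.83 in old mice) and Fancc in old mice. With 2 members tested, the median relative change was -0.87 in young and -1.58 in old mice, and the young count of 1 was 2 without irradiated young mouse 4. Levels of Fanca were 2.59 to 3.48 (median 2.99) in unirradiated and 1.03 to 1.78 (median 1.53) in irradiated young mice. Those groups did not overlap. The young change of Fanca had SE 0.187 and limma adjusted p = 6.27e-05. Within the mixed slide it was -0.91 relative to all genes (adjusted p = 0.0517 with slide as a fixed block), and after normexp -0.95 (0.226).

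Fancc ran from 0.08 to 0.69 (median 0.40) in unirradiated and from -0.79 to 0.27 (median -0.17) in irradiated young mice, and its change of -0.65 there was no DEG. In old mice it ran from 0.81 to 1.501 (median 1.25) without and from -1.69 to 0.13 (median -0.66) with irradiation. The old groups were apart and the young groups overlapped, and 3 of 6 irradiated old mice were well above background. As measured, Fancc fell by 1.85 in old mice (SE 0.299, limma adjusted p = 0.00106), with a relative change of -1.43 within the mixed slide (adjusted p = 0.151 with slide as a fixed block) and -0.94 in the deposited values (0.097). The difference between the ages, -1.19, had unadjusted p = 0.00255 and adjusted p = 0.117 in limma's test.

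Fancd2 was near background throughout, at -2.41 to -0.92 (median -1.90) in unirradiated and -3.57 to -1.30 (median -2.57) in irradiated young mice. Unirradiated old mice had -2.72 to -1.14 (median -2.39) and irradiated old mice -3.85 to 0.07 (median -2.24). All groups of Fancd2 overlapped and no fold is given. Exact two-sided permutation p was 0.113 and 0.751 for radiation in young and old mice, and 0.284 and 0.481 for age without and with irradiation.

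**Figure D2:**
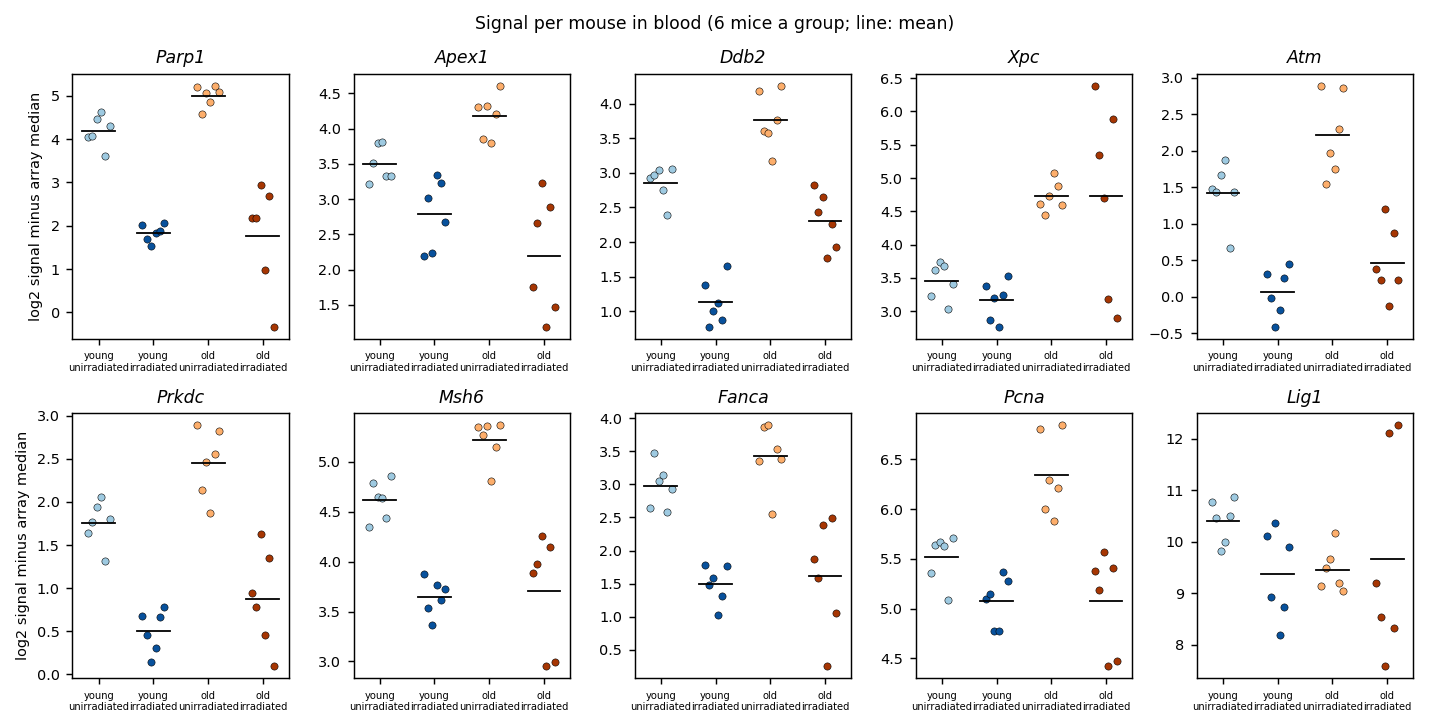
Level in each mouse, as log2 signal minus the array median, of Parp1, Apex1, Ddb2, Xpc, Atm, Prkdc, Msh6, Fanca, Pcna and Lig1 in the 4 groups, with the line at the group mean. Irradiated and unirradiated mice are apart in both ages for Parp1, Ddb2, Atm, Prkdc, Msh6 and Fanca, while Xpc and Lig1 overlap and spread most in irradiated old mice, where Lig1 ran from 7.59 to 12.26.

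The difference between the ages in the response to radiation was tested directly, as the change in old minus the change in young mice. No gene was called (0% of 17805 genes, and 0 of 49 members, in limma's test), while 4197 genes and 12 members had an unadjusted p under 0.05. The median member differed by -0.49 and the median gene by -0.24, with 35 of 49 members below the latter and relative values between -1.38 and 1.498. Fancc and Apex1 are given above; Rad50 differed by -0.89 and Nbn by -1.14. Without irradiated old mouse 3, 1052 genes were called, among them 6 members. These were Apex1, Fancc, Polb, Rad50, Rad51b and Rpa3, all with a lower measured change in old than in young mice. The probe of Rad51b, which gave the lowest relative value of -1.38, was well above background on 8 of 24 arrays. Few of these were of old mice, so its difference between the ages cannot be judged. The count of genes was 1 without irradiated young mouse 1, 2 and 5 without unirradiated old mice 2 and 4, and 7, 7 and 5 without irradiated old mice 1, 2 and 5. Without the 7 arrays high in hepatocyte markers, 3240 genes and 6 members were called, namely Apex1, Ercc4, Fen1, Rad50, Rpa3 and Xrcc3, all lower. The members' share was below that of all genes. The irradiated mice left were young mice 1, 3 and 6 and old mice 1, 4 and 6. Among these, young 1 and 6 and old 4 and 6 are similar pairs, counted separately here, and old 4 and 6 stood apart.

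Repair genes outside the 52 were counted by pathway from a further list, beside 21.1% of all genes that fell in young and 17.4% in old mice. In young mice 4 of 4 mismatch genes fell, as did 10 of 15 in break signalling, 9 of 11 in gap filling, 6 of 10 in the Fanconi pathway, 6 of 12 in base excision, 5 of 8 in end joining, 3 of 12 in nucleotide excision and 2 of 20 in homologous recombination. In old mice these counts were 4, 11, 10, 7, 8, 2, 7 and 7. The young counts for nucleotide excision and recombination and the old count for end joining are near or below the share of all genes. With slide as a fixed block the counts in the same order were 0, 3, 4, 1, 3, 1, 1 and 0 in young and 0, 1, 1, 0, 1, 0, 1 and 0 in old mice in limma's test. Where they were 0, those at an unadjusted p under 0.05 were 3 and 4 in young and 3, 6, 1 and 4 in old mice. In the deposited values, with 4, 15, 11, 10, 11, 7, 13 and 18 genes tested, they were 3, 7, 6, 2, 3, 4, 2 and 1 in young and 2, 6, 5, 2, 5, 1, 1 and 2 in old mice. In 1 fit of 24 arrays they were 4, 8, 7, 2, 5, 2, 2 and 1 in young and 4, 12, 10, 7, 11, 3, 8 and 9 in old mice. After normexp 0 fell in any of these lists in limma's test, with 0, 0, 1, 0, 2, 0, 1 and 0 at an unadjusted p under 0.05 in young mice and 1, in gap filling, in old mice. The genes of these 8 lists that rose in either age were Rad54b, a recombination motor (log2 change 1.48), and Aplf, an end-joining scaffold (0.68), both in young mice, and 1 break signalling gene also rose without irradiated young mouse 4. The Fanconi count in young mice was 3 without unirradiated mouse 2, 3, 4 or 6 or irradiated mouse 2 or 3. In old mice the nucleotide excision count was 3 without unirradiated mouse 1, 5 or 6 or irradiated mouse 6 and 4 without unirradiated mouse 2 or irradiated mouse 4, and the end joining count was 1 without unirradiated mouse 1, 2, 3, 5 or 6 or irradiated mouse 2, 3, 4 or 6. In each of these lists the median relative change was below 0 in both ages under every scaling tried, but with slide as a fixed block it was 0.09 for nucleotide excision in young mice.

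Among those that fell were Pms1, a mismatch protein (log2 change -1.25 in young, -1.49 in old mice), Neil1, a glycosylase (-1.30, -1.56), Timeless, a fork protein (-1.34, -2.18), Pole2, a polymerase subunit (-1.12, -2.04), and Fancb of the Fanconi core (-1.50, -1.51). Parp2, the closest relative of Parp1, fell in old mice (-2.26). Dntt, which adds bases to the ends of antigen receptor segments in immature lymphocytes, fell in young mice (-2.17), a call lost without unirradiated young mouse 1 or irradiated young mouse 4. Of 11 genes for direct reversal and lesion bypass, 3 rose and 5 fell in young and 1 rose and 5 fell in old mice, the last count being 3 without unirradiated old mouse 1, 2, 3, 5 or 6 or irradiated old mouse 4 or 6. Mgmt, which takes alkyl groups off guanine, rose by 2.17 in young (limma adjusted p = 9.07e-07) and by 1.91 in old mice (0.000319).

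Promoter windows from RefSeq (GRCm38.p6, 250 bases before to 50 after the start of the gene) were matched for 41 of the 52 members, including 18 of the 22 that fell in both ages. They were searched on both strands for E2F words (TTTGGCGC, TTTCCCGC, TTTCGCGC or TTTGCCGC), the NRF1 word (a GC-rich run of 10 letters with 1 free base), CCAAT and the GC box (GGGCGG). E2F words were in 14.6% of members' windows, 22.2% of those that fell in both ages, 8.33% of 12 that were DEGs in neither and 2.32% of all 27025 promoter windows. The NRF1 word was in 14.6%, 22.2%, 0% and 4.78%, CCAAT in 61%, 61.1%, 66.7% and 37.9%, and the GC box in 68.3%, 66.7%, 66.7% and 35.9%. A match is a description of letters and not a bound site. The windows shown are of members that fell in both ages: Msh3, Msh6 and Xrcc6 for their E2F words, Atm for its 2 NRF1 words and Parp1 for the largest decrease; they were chosen after the values were seen. Capitals mark the matches, and matches of different motifs did not overlap in these 5 windows.
Msh3: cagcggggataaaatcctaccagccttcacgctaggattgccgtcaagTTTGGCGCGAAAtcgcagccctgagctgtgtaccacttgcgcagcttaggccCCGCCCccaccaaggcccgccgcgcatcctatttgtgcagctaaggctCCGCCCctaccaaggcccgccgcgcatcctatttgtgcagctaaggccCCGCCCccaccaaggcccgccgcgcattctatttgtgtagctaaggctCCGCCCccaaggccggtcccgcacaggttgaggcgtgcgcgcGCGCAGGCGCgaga
Msh6: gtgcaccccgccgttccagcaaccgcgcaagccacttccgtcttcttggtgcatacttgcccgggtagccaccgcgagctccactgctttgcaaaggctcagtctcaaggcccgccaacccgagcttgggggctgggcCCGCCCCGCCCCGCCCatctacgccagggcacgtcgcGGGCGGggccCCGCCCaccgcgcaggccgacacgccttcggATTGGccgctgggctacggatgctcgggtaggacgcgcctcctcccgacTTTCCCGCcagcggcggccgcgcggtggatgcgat
Xrcc6: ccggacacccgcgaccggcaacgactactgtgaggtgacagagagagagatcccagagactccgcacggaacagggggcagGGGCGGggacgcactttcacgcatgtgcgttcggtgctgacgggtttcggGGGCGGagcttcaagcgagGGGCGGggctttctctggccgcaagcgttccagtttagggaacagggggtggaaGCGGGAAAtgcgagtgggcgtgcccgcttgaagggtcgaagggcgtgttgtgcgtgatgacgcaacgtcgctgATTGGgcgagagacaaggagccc
Atm: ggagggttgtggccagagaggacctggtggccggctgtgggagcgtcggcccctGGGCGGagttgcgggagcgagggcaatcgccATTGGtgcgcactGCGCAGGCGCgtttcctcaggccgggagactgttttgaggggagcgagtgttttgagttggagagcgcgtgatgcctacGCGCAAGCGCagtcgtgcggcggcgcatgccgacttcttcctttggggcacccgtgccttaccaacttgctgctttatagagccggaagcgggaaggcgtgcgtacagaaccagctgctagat
Parp1: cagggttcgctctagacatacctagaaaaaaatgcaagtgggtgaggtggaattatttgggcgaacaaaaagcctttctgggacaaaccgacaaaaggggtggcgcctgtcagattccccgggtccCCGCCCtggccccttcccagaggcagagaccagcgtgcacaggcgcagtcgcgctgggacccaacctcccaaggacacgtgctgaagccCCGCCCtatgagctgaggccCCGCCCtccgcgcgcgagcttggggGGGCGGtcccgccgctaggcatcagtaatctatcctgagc
The windows lie at chr13:92354954-92355253 on the minus strand for Msh3, chr17:87974800-87975099 on the plus strand for Msh6, chr15:82016119-82016418 on the plus strand for Xrcc6, chr9:53536622-53536921 on the minus strand for Atm and chr1:180568641-180568940 on the plus strand for Parp1. In Msh3 the 2 E2F words overlap each other, starting 202 and 198 bases before the gene start, and 1 NRF1 word and 4 GC boxes follow. Msh6 has 1 E2F word, 1 CCAAT and 5 GC boxes, Xrcc6 has 1, 1 and 3, Atm has 1 CCAAT and 1 GC box beside its NRF1 words, and Parp1 has 4 GC boxes and none of the others.

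Some lists of blood cell markers were also on the low side after irradiation, and others were on the high side. All 8 B-cell markers fell in young and 7 of 8 in old mice, led in brightness by Cd79b (log2 change -2.68 and -4.13). The log2 of their summed signal was 10.61, 10.78 and 10.92 (lowest, median, highest) in unirradiated and 7.65, 8.10 and 9.18 in irradiated young mice, and 10.82, 11.20 and 11.82 against 5.78, 7.16 and 9.77 in old mice. B-cell marker sums of irradiated and unirradiated mice did not overlap in either age. Of 9 T-cell markers, 7 fell in young mice and 0 in old mice in limma's test (2 at an unadjusted p under 0.05). The brightest was Lck, and the sums were 9.51, 10.02 and 10.16 against 8.45, 8.90 and 9.65 in young and 9.44, 9.81 and 11.23 against 8.998, 9.53 and 10.31 in old mice. Of 21 proliferation genes, 10 fell in young and 6 in old mice, with median relative changes of -0.50 and -0.48. With any 1 array left out 6 fell in old mice, but leaving out several moved the values: without irradiated old mice 4 and 6, whose summed proliferation signals were 10.09 and 10.14 against 7.58 to 7.75 in the other 4, 14 fell and the median was -0.95, and without the 7 arrays high in hepatocyte markers 5 fell and the median turned to 0.26. After normexp 0 of 13 fell in either age in limma's test, with 1 and 0 at an unadjusted p under 0.05, and with slide as a fixed block 2 fell in young and 0 in old mice (6 at an unadjusted p under 0.05). B-cell counts were 1 and 1 after normexp, where 8 and 7 had an unadjusted p under 0.05 and the median relative changes were -1.82 and -2.69. With slide as a fixed block they were 8 and 4, with 8 of 8 at an unadjusted p under 0.05 in both ages and medians of -2.24 and -4.09. The T-cell count in young mice was 1 in each, with 2 and 4 at an unadjusted p under 0.05. Without the 7 arrays high in hepatocyte markers 4 T-cell markers fell in young mice, and 1 rose in old mice. The part of B cells, T cells and dividing cells in the lower repair transcripts was not tested.

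Markers on the high side after irradiation were those of platelets (7 of 7 rose in both ages; brightest Pf4), with sums of 11.69, 12.27 and 12.42 against 13.00, 13.65 and 14.27 in young and 12.47, 12.92 and 13.47 against 13.88, 14.45 and 15.10 in old mice. The platelet count was 6 in young and 0 in old mice after normexp in limma's test, where all 7 had an unadjusted p under 0.05, and 3 and 1 with slide as a fixed block. Macrophage markers (7 of 8 rose in young, 1 rose and 1 fell in old mice; brightest Cd5l) summed to 4.93, 5.74 and 8.72 against 9.46, 10.87 and 11.43 in young and 3.89, 5.90 and 7.71 against 4.51, 7.94 and 10.91 in old mice, and Vcam1 was not well above background in any unirradiated young mouse. Hepatocyte markers (5 of 6 rose in old mice, 0 in young mice in limma's test with 2 at an unadjusted p under 0.05; brightest Apoa2) summed to 6.37, 7.14 and 11.31 against 6.07, 10.33 and 15.00 in young and 5.39, 5.71 and 5.91 against 6.46, 11.04 and 14.28 in old mice. Alb, Apoa1, Ttr, Fga and Apoh were not well above background in any unirradiated old mouse. With slide as a fixed block 1 macrophage marker rose in young and 0 in old mice (1 at an unadjusted p under 0.05). Without the 7 arrays high in hepatocyte markers 0 macrophage markers rose in old mice in limma's test (2 at an unadjusted p under 0.05), and their median relative change turned from 2.38 to -0.52. The hepatocyte count in old mice was 0 after normexp and 0 with slide as a fixed block, with 6 and 3 at an unadjusted p under 0.05. Without irradiated old mouse 1, 2 macrophage markers rose in old mice, and without irradiated young mouse 1 or 3, 1 hepatocyte marker rose in young mice. How far these cells or their RNA enter the members' changes was not tested.

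Of the other marker lists, 3 of 6 for NK cells (brightest Gzma) and 4 of 9 for neutrophils (brightest S100a9) rose in young mice and 0 in old mice in limma's test, where 2 and 0 had an unadjusted p under 0.05. After normexp the young counts were 1 and 1, and with slide as a fixed block 0 and 0 (3 and 1 at an unadjusted p under 0.05). Without the 7 arrays high in hepatocyte markers they were 6 and 5, the median relative change of NK markers moving from 1.28 to 1.90, and with similar arrays counted once 1 and 4. Summed NK markers were 8.09, 8.84 and 9.46 against 9.48, 10.61 and 11.24 in young and 7.45, 8.25 and 9.56 against 8.38, 9.72 and 10.27 in old mice. Neutrophil sums were 10.63, 11.24 and 11.88 against 11.99, 12.58 and 13.52, and 12.49, 12.84 and 14.07 against 12.43, 13.51 and 14.95. Of 6 monocyte markers (brightest Csf1r) 3 rose and 1 fell in young and 2 fell in old mice, with sums of 8.49, 8.81 and 9.34 against 9.09, 9.31 and 9.53, and 9.28, 9.85 and 10.36 against 7.34, 9.56 and 9.88. Without irradiated old mice 4 and 6, whose mean monocyte levels were 1.81 and 2.00 (5.06 to 5.498 in the other 4), 2 monocyte markers rose and 2 fell in old mice, and the median relative change moved from -1.03 to -0.08. Without the 7 arrays high in hepatocyte markers 0 monocyte markers rose and 3 fell in old mice, and that median was -2.35. With slide as a fixed block 0 were called in either age in limma's test (2 in young and 0 in old mice at an unadjusted p under 0.05), and the old median turned to 0.14. Of 10 erythroid markers (brightest Hba-a1) 1 rose and 4 fell in young mice and 0 changed in old mice in limma's test, with 1 at an unadjusted p under 0.05. Erythroid sums were 15.31, 16.08 and 16.54 against 14.98, 15.69 and 16.44, and 15.57, 16.00 and 16.65 against 15.05, 15.86 and 17.55. The paper's methods reduced globin RNA before labelling, and whether that step enters these sums was not tested. Leaving out single mice moved some of these small counts: 1 NK marker rose in old mice without unirradiated mouse 3 or irradiated mouse 6, 1 erythroid marker without irradiated mouse 5, and 1 monocyte marker fell without unirradiated mouse 1, 2, 4, 5 or 6 or irradiated mouse 6. In young mice 0 erythroid markers rose without unirradiated mouse 1, 3 or 4 or irradiated mouse 1, 3, 4 or 6. Of 17 targets of p53, the factor that DNA damage activates, 12 rose and 3 fell in young and 6 rose and 1 fell in old mice, led by the cell cycle inhibitor Cdkn1a (log2 change 5.06 and 3.96). The number that rose in old mice was 10 under the 75th percentile, the median of bright probes and centring, 6 with quantile normalization, 8 in the deposited values and 12 without irradiated old mice 4 and 6, but 1 after normexp, where 6 rose in young mice, and 2 with slide as a fixed block, where 10 did.

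**Figure D3:**
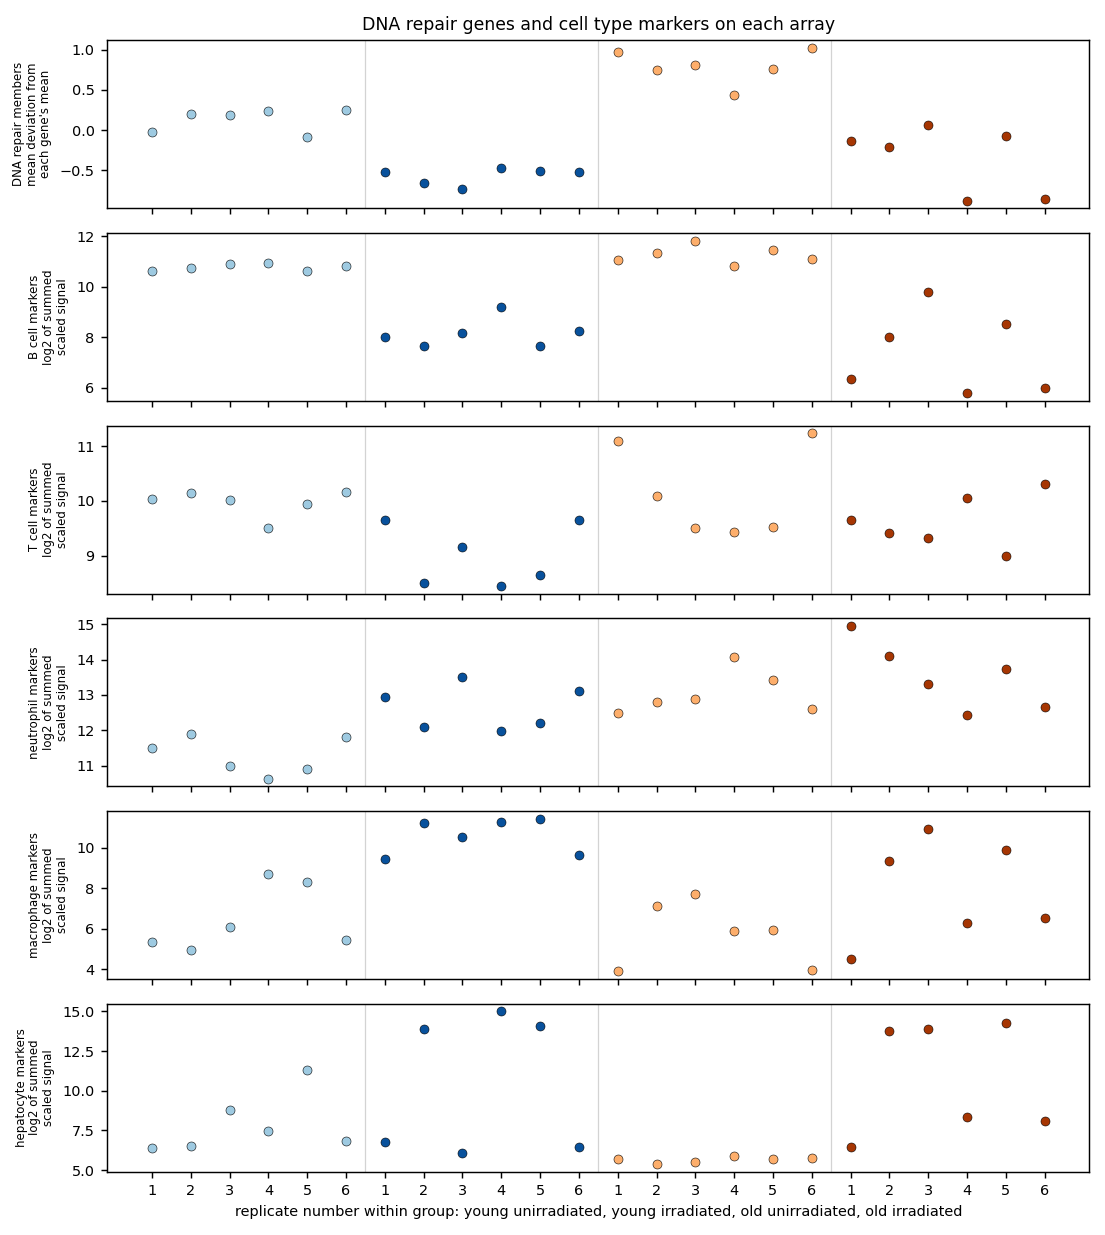
Mean deviation of the tested members from their overall means, and log2 of the summed signal of B-cell, T-cell, neutrophil, macrophage and hepatocyte markers, for each of the 24 arrays by group. B-cell sums are below 10 on every irradiated array and above 10 on every unirradiated one, and the members' mean is lowest in irradiated old mice 4 and 6, at -0.88 and -0.86.

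Age was compared first without irradiation. The comparisons of age share their mice with those of radiation. Repair genes stood higher in old blood on the scale of the array median, as most genes did, but under other scalings the difference shrank, most calls were lost and some members turned lower. The paper reports the other direction for most of its DEGs in this comparison, lower in old mice. In limma's test 32 of 49 members rose and 1 fell, while 48.5% of all genes rose and 15.4% fell. The members furthest on the high side as measured were Nbn, which recruits Atm to breaks and was well above background in 2 of 6 young mice, Xpc, Dclre1c and Ercc5, and Lig1 was the member that fell. All 9 members of nucleotide excision repair rose, with a median relative change of 0.23, though between 0 and 4 of them rose under the other scalings.

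The all-gene median was 0.63 between old and young unirradiated mice, and the members' median 0.69, so relative to all genes the median member stood at 0.06, with 19 of 49 below 0 and a range of -1.58 to 0.67. This all-gene shift comes with the scaling: it was 0.00 for the 75th percentile, 0.14 for quantile normalization, -0.08 for the median of bright probes, 0.16 after normexp, 0.02 in the deposited values and 0.26 with arrays centred on the genes tested. Of all DEGs 75.9% were higher, against 28.9%, 44.8%, 21.6%, 0% (0 DEGs in limma's test), 17.2% and 54.7% in the same order. Members that rose and fell then numbered 5 and 2 of 41, 9 and 2 of 44, 3 and 2 of 41, 0 and 0 of 31 (0 at an unadjusted p under 0.05), 2 and 2 of 44, and 10 and 2 of 49, and the relative median was -0.03 after normexp and between 0.06 and 0.18 elsewhere. DEGs among all genes, in either direction, were 5830 of 15638, 6047 of 15800, 5546 of 15490, 0 of 11803, 4443 of 17124 and 7960 of 17805. That is a larger share than among members wherever any gene was called. In 1 fit of all 24 arrays 20 members rose.

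By pathway, the relative median was positive under every scaling for nucleotide excision repair alone, between 0.07 and 0.45, but its count of genes that rose went from 9 of 9 to 2 of 6, 3 of 7, 1 of 7, 0 of 7, 0 of 7 and 4 of 9 in the order above. End joining (4 of 7 rose, relative median 0.08) and break signalling (5 of 6, or 3 without unirradiated old mouse 1; 0.11) turned negative after normexp, and gap filling (4 of 6, 0.07) after normexp and quantile normalization. Homologous recombination (3 of 10, or 5 without unirradiated young mouse 1 and 6 without unirradiated old mouse 4; -0.07), mismatch repair (3 of 3; -0.02), base excision (3 of 6; -0.06) and the Fanconi pathway (1 of 2, or 2 without unirradiated old mouse 4; -0.01) were below the all-gene median and turned positive under the 75th percentile, among other scalings.

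Nbn levels ran from -1.23 to -0.30 (median -0.47) in unirradiated young and from 0.23 to 1.09 (median 0.68) in unirradiated old mice. After irradiation they ran from -1.46 to 0.43 (median -0.96) in young and from -1.56 to 0.15 (median -0.54) in old mice. Unirradiated old mice were apart from unirradiated young and from irradiated old mice, and the irradiated ages overlapped, as did the young groups. Of 6 mice each, the probe of Nbn passed the mark for well above background in 2 and 3 young mice without and with irradiation and in 6 and 2 old mice, so the size of its change is uncertain. As measured, Nbn rose by 1.30 (SE 0.192, n = 6 per group, limma adjusted p = 6.94e-05; exact permutation p = 0.00216, two-sided), which relative to all genes was 0.67, and it was a DEG in all 15 alternative settings that tested it and could change the value.

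Dclre1c ran from 2.00 to 2.62 (median 2.29) in unirradiated young and from 3.17 to 4.04 (median 3.49) in unirradiated old mice, with 2.04 to 3.15 (median 2.39) and 1.15 to 4.89 (median 3.79) after irradiation. Ercc5 ran from 0.09 to 1.48 (median 1.19) and from 1.88 to 2.51 (median 2.17), with 0.18 to 1.67 (median 0.77) and 0.76 to 2.09 (median 1.499) after irradiation. Unirradiated old mice were above unirradiated young mice for both genes, and for Xpc and Ddb2, without overlap. The log2 change was 1.25 ± 0.168 (SE) for Dclre1c (limma adjusted p = 3.83e-05). For Ercc5 it was 1.18 ± 0.210 (0.000247), and for Xpc 1.27 ± 0.159 (2.5e-05). Relative to all genes these were 0.62, 0.55 and 0.64. The call was lost after normexp for Dclre1c (0.30, adjusted p = 1) and Xpc (0.37, 1), in the deposited values for Ercc5 (0.69, 0.0672) and Xpc (0.62, 0.0386), with the median of bright probes for Ercc5 (0.68, 0.0281), and in 1 fit of 24 arrays for Dclre1c (0.0274) and Xpc (0.0155).

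Lig1 lay between 9.81 and 10.88 (median 10.49) in unirradiated young and between 9.04 and 10.17 (median 9.35) in unirradiated old mice. After irradiation it lay between 8.19 and 10.37 (median 9.41) in young and between 7.59 and 12.26 (median 8.88) in old mice. The unirradiated groups overlapped in part. Lig1 fell by 0.95 (SE 0.231, limma adjusted p = 0.00206; exact permutation p = 0.00866, two-sided), which was -1.58 relative to all genes. It was no DEG after normexp (-1.59, adjusted p = 0.861), in 1 fit of 24 arrays (0.178), with replicate number as a block (0.013) or with similar arrays counted once (-1.39, 0.0129).

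Of the members followed in every comparison, Ddb2 rose by 0.90 (limma adjusted p = 0.000962), Pcna by 0.83 (0.00156), Parp1 by 0.81 (0.00118), Prkdc by 0.71 (0.00433) and Msh6 by 0.60 (0.00177). Relative to all genes these were 0.27, 0.20, 0.19, 0.08 and -0.03, close to the median gene. Atm, at 0.79, was no DEG (adjusted p = 0.0141). The unirradiated groups were apart for Ddb2 and Pcna and overlapped for Parp1, Prkdc, Msh6 and Atm. Ddb2 was no DEG under the 75th percentile (0.38, adjusted p = 0.0757), quantile normalization (0.26, 0.0713), the median of bright probes (0.39, 0.155), normexp (0.06, 1), the deposited values (0.26, 0.327) or centring (0.0156), and Parp1 under those 6 and in 1 fit of 24 arrays (0.063). Pcna lost its call with quantile normalization (0.03, 0.442), normexp (0.12, 1), the deposited values (0.07, 0.756) and centring (0.0248). Prkdc was a DEG in 6 and Msh6 in 9 of 16 settings, and the relative sign turned for Prkdc after normexp (-0.08) and for Msh6 with the 75th percentile (0.08), the median of bright probes (0.09) and no filter on dim probes (0.30).

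Single mice moved these values too. Atm was a DEG without unirradiated old mouse 2 (0.30 relative, limma adjusted p = 0.00568) and with the mean of its probes (0.19, 0.0029). Leaving out each array gave relative changes of Atm from 0.05 to 0.30, against 0.17 with all arrays. Prkdc was no DEG without unirradiated young mouse 1 (0.0102), 2 (0.00818) or 5 (0.0104) or unirradiated old mouse 1 (0.0113), 3 (0.00828), 5 (0.0102) or 6 (0.0114), and its relative change was 0.13 without unirradiated young mouse 4 and 0.14 and 0.15 without unirradiated old mice 2 and 4. Without unirradiated young mouse 5 the relative change of Prkdc was 0.03, and without unirradiated old mice 1 and 6 it was 0.01 and 0.04. The relative change of Msh6 was -0.05, -0.02 and -0.00 without unirradiated young mice 1, 2 and 6 and -0.06, 0.01 and -0.02 without unirradiated old mice 3, 4 and 5. That of Parp1 was 0.11 without unirradiated young mouse 5 and that of Pcna 0.13 without unirradiated old mouse 1.

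**Figure D4:**
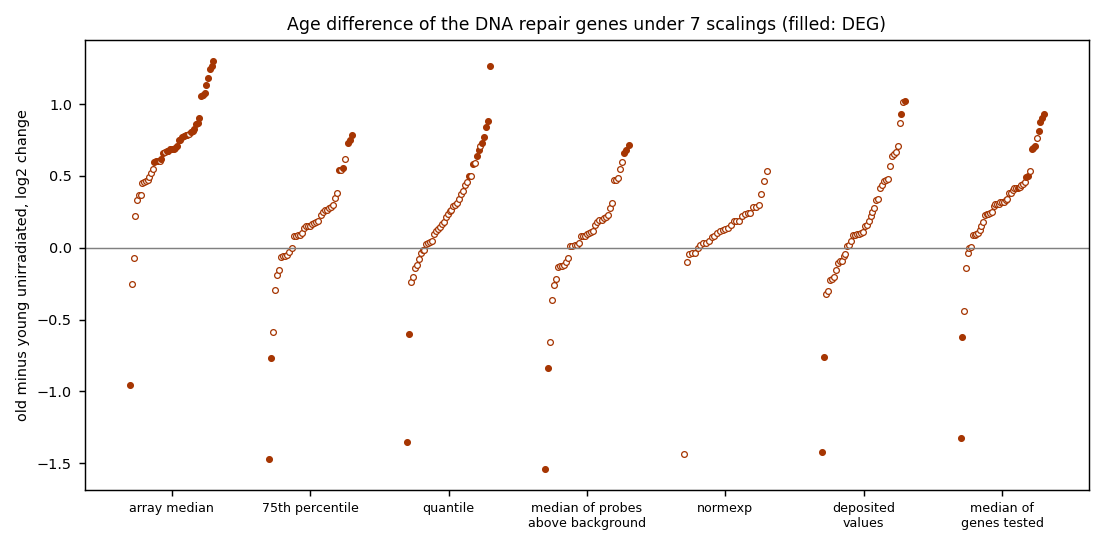
Log2 change from young to old unirradiated mice of members under 7 scalings, each point a gene and filled where it was a DEG. Most points sit above 0 with scaling to the array median, where 32 members rose, and nearer to 0 under the other scalings, where between 0 and 10 rose and some members lie below 0. The median member stayed above 0 there, between 0.10 and 0.32.

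After irradiation, few repair genes were called by age. Of 49 members, 1 rose and 0 fell in limma's test, with 8 at an unadjusted p under 0.05, against 1.4% of all genes that rose and 0.595% that fell, so the count is near the background. The member was Ddb2, which was higher in every irradiated old mouse than in any irradiated young mouse. The members' median relative change was 0.00, between -1.89 and 1.36, with an all-gene median of 0.20. The share of higher DEGs, 70.1%, changed to 44.3% with quantile normalization, 25.4% when scaled to the 75th percentile, 28.5% when scaled to bright probes, 11.4% after normexp, 15.9% in the deposited values and 45.4% with centring.

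Ddb2 rose by 1.18 between irradiated young and old mice (SE 0.266, limma adjusted p = 0.0429; exact permutation p = 0.00216, two-sided), 0.97 relative to all genes. It was a DEG in 8 of 17 settings and in 2 of 12 with 1 mouse left out. The adjusted p was 0.0783, 0.116, 0.104, 0.0751, 0.101 and 0.0558 without irradiated young mice 1 to 6, and 0.0959, 0.0834, 0.067 and 0.0825 without irradiated old mice 1, 2, 3 and 5. Without the arrays high in hepatocyte markers the relative change of Ddb2 was 0.73 (adjusted p = 0.392). Xpc showed 1.57 with overlapping groups (adjusted p = 0.13; exact permutation p = 0.0433, two-sided) and was a DEG without irradiated old mice 4 and 6 (2.07 relative, 0.00145) and in 1 fit of 24 arrays (0.0133).

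The other members followed had log2 changes of 0.40 for Atm (limma adjusted p = 0.457), 0.37 for Prkdc (0.506), 0.06 for Msh6 (0.94), 0.00 for Pcna (0.998) and -0.06 for Parp1 (0.96). Without irradiated old mice 4 and 6, 12 members rose and 0 fell in limma's test (25 at an unadjusted p under 0.05), and 5052 of all 17805 genes were DEGs in either direction, a share near that of the members. The 355 DEGs among all genes became 80, 84, 30, 102, 103 and 134 without irradiated young mice 1 to 6 and 105, 121 and 119 without irradiated old mice 1, 2 and 5, and in these 9 fits 0 members were DEGs in limma's test.

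Other lists were counted by age as well, where 48.5% of all genes rose and 15.4% fell without irradiation. Without irradiation, 7 of 9 neutrophil, 6 of 7 platelet, 4 of 6 monocyte and 4 of 8 B-cell markers rose and 3 of 6 hepatocyte markers fell, with the sums given above. These counts hang on the scaling. Under the 75th percentile, quantile normalization, bright probes, normexp, the deposited values and centring, 6, 6, 4, 0, 5 and 7 neutrophil, 2, 1, 1, 0, 0 and 3 platelet and 1, 2, 2, 0, 1 and 1 monocyte markers rose and 4, 4, 4, 0, 2 and 4 hepatocyte markers fell in limma's test. After normexp 1, 0, 0 and 3 of them had an unadjusted p under 0.05, and in the deposited values 2 platelet markers did. The B-cell count was 0 under every other scaling in limma's test, 1 without unirradiated young mouse 1, 2 or 5 or unirradiated old mouse 3, 5 or 6, and 2 without unirradiated young mouse 6 or old mouse 1. In the random variance test 3 of 21 proliferation genes rose and 2 fell, 0 of 9 T-cell markers rose and 1 fell, and 1 of 6 NK markers rose and 0 fell. These are lower shares than the 48.5% of all genes that rose in limma's test. In either direction the random variance test called 11353 genes, near the 11370 of limma's test. Of the p53 targets 10 of 17 rose, and 4, 4, 3, 0 (0 at an unadjusted p under 0.05), 2 and 8 under the same scalings. Among other repair genes, 11 of 15 in break signalling, 8 of 11 in gap filling, 7 of 10 Fanconi, 7 of 12 base excision, 9 of 11 reversal and bypass, 8 of 20 recombination, 5 of 12 nucleotide excision, 5 of 8 end joining and 2 of 4 mismatch genes rose, counts that dropped to between 0 and 2 with the 75th percentile. The shares for recombination, nucleotide excision and mismatch are near or below that of all genes. Those for end joining and base excision are somewhat above it, in lists of only 8 and 12 genes. The end joining count was 2 without unirradiated young mouse 1 or old mouse 5 and 3 without young mouse 5 or old mouse 1 or 6. The mismatch count was 0 without unirradiated young mouse 1 or old mouse 1, 5 or 6, 1 without young mouse 2 or 5 or old mouse 3, and 4 without old mouse 4. The part of cell types in the age differences was not tested.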

How the data were processed

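Blood RNA, in which globin RNA had been reduced, was measured on 24 arrays, given in the methods as 24 mice. The authors scanned them with Agilent Feature Extraction 12.0.2.2, whose deposited processed signal is a spot intensity, background-subtracted and detrended but not scaled between arrays. Deposited 0 or 1 marks per spot, of a unit other than signal, gave outlier spots and spots well above background. Processed log2 values of 17190 probes were deposited too. Their 24 column medians ran from 5.77 to 6.73, their correlation with the scanner values from 0.995 to 1 over 17166 matched probes, and their difference from the scanner values minus their median from 3.65 to 5.14, so that scale and direction are settled. The published methods name a log2 scale and a median normalization, but over which probes the median was taken is not given, and the column medians are unequal.

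Of 44397 spots, 43020 were not controls and gave 39429 probes, after averaging repeat spots. Log2 intensity minus the array median was used. Probes marked as not above background or not uniform on 25% of arrays or more were left out, leaving 24130 probes of 18737 genes. Probes had to differ more than 1.5-fold from their median on at least 20% of arrays (5 of 24), and each gene was taken from its brightest such probe, which left 17805 genes. Each comparison was fitted on its own groups, and the interaction on all 24 arrays, with limma 3.58.1 in R 4.3.3 (with jsonlite 2.0.0 and the package data.table, version 1.17.8), and figures were drawn with Matplotlib 3.10.9 in Python 3.11.15. The scripts were tested on simulated data. Single values were also tested by exact permutation over 924 splits.

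Named in each comparison were the members called with the 4 largest changes in each direction, relative to the median of all genes, and in every comparison Ddb2, Xpc, Pcna, Atm, Prkdc, Brca1, Fancd2, Msh6 and Parp1. Of each other list at most 3 called genes and of each marker list its brightest gene were named. The members and lists were chosen with earlier results of these data known. Other settings tried were quantile normalization, the 75th percentile or the median of bright probes (well above background everywhere) as the scale, normexp with an offset of 50, the deposited values, a filter for probes well above background in all arrays of a group, leaving out the dim or the 1.5-fold filter, averaging a gene's probes, a random variance test, 1 fit of 24 arrays, the replicate number or slide as a block, values within the mixed slides, and leaving out each array. Chosen after seeing the data were arrays centred on the genes tested, leaving out irradiated old mice 4 and 6, leaving out the 7 arrays with high hepatocyte markers, 5 pairs of similar arrays counted as 1 sample each, and slide as a fixed block. The similar pairs were otherwise counted separately, and whether they share an animal was not tested. Leaving out irradiated old mice 4 and 6 was run only where those mice enter.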

Additional observations from a re-analysis of the deposited data

Results flagged for a closer look

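Of 68 groups of 6 mice tested for the 17 members named, 2 held a mouse far from the others, and chance alone marks about 1 in 20 groups. The level of Atm in unirradiated young mouse 5 was 0.67, the lowest of its group, with the nearest mouse at 1.43, and that gap was 0.633 of the whole range of the group. For Fancd2, unirradiated old mouse 5 was highest at -1.14, with the nearest at -2.15 and a gap of 0.635 of the range, at a probe near background.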

How the results depend on the processing

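With scaling to the 75th percentile, the genes called were 5830 for age without and 118 with irradiation and 8 for the interaction, and members 7 and 0 for age. With quantile normalization they were 6047, 176 and 7, and members 11 and 0. With the median of bright probes they were 5546, 200 and 8, and members 5 and 0. After normexp, genes called were 837 in young and 8 in old mice for radiation, and 0 and 35 for age without and with irradiation, and members 0 in all 4. In limma's test of age without irradiation after normexp, where 0 genes were called, 963 had an unadjusted p under 0.05. With the deposited values they were 3750, 2841, 4443 and 44, and members 19 in old mice, 4 for age without and 0 with irradiation. With arrays centred on the genes tested, 12 members were called for age without irradiation, 183 genes for age after irradiation and 4 for the interaction.

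Without a filter on dim probes, 108 genes and 0 members were called for age after irradiation. With the filter for probes well above background, 2 members were called there and 4 genes for the interaction, and without the 1.5-fold filter 2 members. The mean of all probes called 2 genes for the interaction. The 1 fit of 24 arrays called 3994 genes in young mice, 6217 genes and 20 members for age without irradiation, and 2569 genes and 7 members with it. Slide as a random block called 1366 genes and 6 members for age after irradiation and 32 genes for the interaction. With slide as a fixed block, where fewer samples give the radiation difference, genes called were 1824 in young and 495 in old mice, and members 11 and 1. Without irradiated old mice 4 and 6, 5052 genes and 12 members were called for age after irradiation and 27 genes for the interaction. Without the 7 arrays high in hepatocyte markers, genes called were 7169 in old mice, 27 for age after irradiation, with 0 members, and 3240 for the interaction, with 6 members. With similar arrays counted as 1 sample they were 2878 in old mice and 7 for age after irradiation, with 0 members. These losses and gains were not tested for their cause, other than fewer samples or genes where the setting itself takes them.

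The replicate number as a block called 5068 genes and 21 members in young mice, 3469 and 26 in old mice, 10366 and 26 for age without irradiation, 2 and 0 for age with it and 0 for the interaction. Correlations of same-numbered mice ran from -0.287 to 0.294 and -0.204 to 0.336 for radiation in young and old mice, and from -0.0803 to 0.155 and -0.597 to 0.582 for age without and with irradiation. Pairs above 0.1 numbered 3, 4, 1 and 4 of 6, and 1, 3, 0 and 1 of 6 correlated best with their own number. The labels name no pairing, and these correlations cannot show whether the numbers stand for one.

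Leaving out each array gave 5443 to 6591 genes and 22 to 28 members called in young mice, 3235 to 4637 and 25 to 31 in old mice, 10396 to 11650 and 28 to 40 for age without irradiation, 30 to 511 and 0 to 1 with it, and 0 to 1052 genes and 0 to 6 members for the interaction. Relative changes that were called and turned sign were those of Prkdc for age without irradiation after normexp (-0.079) and of Msh6 with the 75th percentile (0.0809), the median of bright probes (0.0914), no filter on dim probes (0.305) and without unirradiated old mouse 4 (0.0069), where leaving out each array gave -0.0556 to 0.0069, and the cause was not tested. Changes that were not called also turned sign under some settings, for age after irradiation in Parp1, Msh6, Atm and Prkdc and for radiation in Xpc in both ages, and these are not counted as reversed here. Over the members named and all settings that could change the comparison, radiation kept the result, called or not, in 243 values in young and 278 in old mice, with calls lost in 11 and 17 and gained in 3 and 0. For age without irradiation 246 kept it, 49 lost and 2 gained the call and 5 reversed. For age with irradiation 179 kept it, and 19 lost and 2 gained the call. The lowest median signals, 8.66 and 8.84, and dim probes limit what a fold can show, since signals near background are measured poorly. Such probes include those of Brca1, Fancd2, Rad51b, Rad54l and Xrcc2.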
